A study of Mus musculus with 2 samples.

Results

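The replication-dependent histone genes of the mouse lie in clusters and supply the H1, H2A, H2B, H3 and H4 proteins that package newly copied DNA. They are short, mostly without introns, and are transcribed mainly in S phase under the coactivator NPAT. Their messages carry no poly(A) tail, and end in a conserved stem-loop that is bound by the stem-loop binding protein SLBP. H3K4me3, trimethylated lysine 4 of histone H3, is a mark found on nucleosomes just after transcript starts.

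The clustered histone genes were taken as the protein-coding genes of the GENCODE annotation of GRCm38 whose symbols begin with Hist1h, Hist2h, Hist3h or Hist4h. There were 67 of them among 22028 protein-coding genes. They comprised 6 H1, 18 H2A, 18 H2B, 12 H3 and 13 H4 genes. A peak was counted at a gene where it lay within 1000 bp of any of its annotated transcript starts, and is called a start peak here.

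H3K4me3 was profiled in lung ILC2s (type 2 innate lymphoid cells) by CATCH-seq, a carrier-assisted native ChIP-seq on chromatin cut with micrococcal nuclease, from about 3000 cells per library. Both groups were 8-week-old wild-type C57BL/6J offspring of untreated fathers. The asthmatic mothers received OVA in alum intraperitoneally on days -21 and -7 and intranasal OVA between day 4 and day 17 of gestation. The control mothers received PBS in alum and then intranasal PBS on the same days. There was 1 library per group, from offspring of 1 dam each, so no value has a replicate, no difference between the groups was tested, and group cannot be told apart from litter, library or cell preparation.

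The lists held 42126 peaks for offspring of control mothers (the control list) and 51610 for offspring of asthmatic mothers (the asthmatic list), with median widths of 315 and 249 bp. Each list gives a −log10 q per peak, given here mostly as a percentile within its own list. The number of sequenced fragments at a summit, the highest point of a peak, was solved from the authors' fold and p, and its median over all peaks was 21 in the control list and 18 in the asthmatic list. Of 10 ILC2 markers 8 had a start peak in the control list and 6 in the asthmatic list. Icos and Klrg1 had one in neither, and Gata3 and Il7r in the control list alone. No marker of T cells, B cells, macrophages, neutrophils or fibroblasts had one. Epcam and Cdh1 of epithelial cells and Kdr of endothelial cells had one in the control list alone, at percentiles 85.6, 60.7 and 4.23. The ILC2 markers ran there from 24.7 at Gata3 to 87.8 at Il2ra. The part of such other cells in the values of the histone genes was not tested.

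The genes lay in 5 groups, split where neighbouring starts were more than 500 kb apart. The first Hist1 cluster held 23 genes with starts from 21716143 to 22043214 on chromosome 13, a span of 327 kb. The second Hist1 cluster held 31 genes with starts from 23531050 to 23934462, a span of 403 kb. Hist2 held 10 genes within 49.9 kb of chromosome 3. Hist3h2ba and Hist3h2a lay 5.77 kb apart on chromosome 11, and Hist4h4 stood alone on chromosome 6. Of the 67 genes 62 had a single exon and 63 a single annotated start, and the median gene length was 539 bp. The annotated start was the start codon itself in 11 of them, so that no 5′ leader is annotated there.

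In 13 places, 2 histone genes were transcribed away from each other from starts at most 1000 bp apart. Of these pairs 12 joined an H2A with an H2B gene, with a median of 258.5 bp and a range of 175 to 305 bp between the starts. The other, Hist1h2bh and Hist1h3f, had 659 bp between them. The stretches between the starts of 5 of the 12 pairs are printed here, since each lies upstream of both of its genes. They run from the base after one start to the base before the other on the plus strand of GRCm38, at chr13:23683949-23684198, chr13:22042945-22043213, chr13:23571221-23571395, chr13:23574197-23574380 and chr3:96220881-96221118. Capitals mark CCAAT, the TATA box TATAAA and the octamer ATTTGCAT, each on either strand.
Hist1h2ac/Hist1h2bc: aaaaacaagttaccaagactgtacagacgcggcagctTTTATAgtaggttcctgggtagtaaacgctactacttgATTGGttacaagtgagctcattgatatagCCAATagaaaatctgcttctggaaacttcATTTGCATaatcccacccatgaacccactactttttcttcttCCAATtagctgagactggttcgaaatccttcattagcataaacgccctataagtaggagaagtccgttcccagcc
Hist1h2ag/Hist1h2bj: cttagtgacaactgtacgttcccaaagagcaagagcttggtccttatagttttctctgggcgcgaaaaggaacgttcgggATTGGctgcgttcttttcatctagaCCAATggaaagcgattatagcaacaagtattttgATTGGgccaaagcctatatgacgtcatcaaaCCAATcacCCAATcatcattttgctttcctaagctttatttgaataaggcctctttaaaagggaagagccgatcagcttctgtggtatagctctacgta
Hist1h2ae/Hist1h2bg: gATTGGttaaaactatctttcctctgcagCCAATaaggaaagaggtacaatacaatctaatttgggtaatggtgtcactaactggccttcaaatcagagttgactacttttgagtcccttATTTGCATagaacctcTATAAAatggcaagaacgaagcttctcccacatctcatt
Hist1h2bf/Hist1h2ad: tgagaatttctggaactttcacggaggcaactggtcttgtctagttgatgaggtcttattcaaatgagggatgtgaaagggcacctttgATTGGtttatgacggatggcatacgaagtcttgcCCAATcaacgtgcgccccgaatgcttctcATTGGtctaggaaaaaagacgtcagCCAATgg
Hist2h2ac/Hist2h2be: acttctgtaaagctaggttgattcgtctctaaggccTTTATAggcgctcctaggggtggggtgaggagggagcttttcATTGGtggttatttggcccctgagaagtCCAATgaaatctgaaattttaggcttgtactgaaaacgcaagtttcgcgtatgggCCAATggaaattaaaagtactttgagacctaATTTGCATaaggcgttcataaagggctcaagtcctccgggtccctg
The germline pair Hist1h2ba and Hist1h2aa (TH2B and TH2A, made in the testis) is shown for contrast, from chr13:23934207-23934411, with 50 bases left out at each end because both starts are start codons.
Hist1h2ba/Hist1h2aa: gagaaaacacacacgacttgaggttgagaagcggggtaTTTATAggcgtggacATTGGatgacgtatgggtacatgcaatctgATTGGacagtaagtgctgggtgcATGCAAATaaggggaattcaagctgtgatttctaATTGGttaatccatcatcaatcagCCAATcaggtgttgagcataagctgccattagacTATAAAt

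CCAAT stood at 2 or more positions in each of the 12 stretches between H2A and H2B starts. TATAAA was found in 7 of them and the octamer in 5, the germline pair included in both counts. Where a start is a start codon, 50 bases at each end were left out of this search. Over the promoters of all 67 genes, taken as 250 bases before to 50 after the start, 83.6% held CCAAT, against 39.0% of all protein-coding promoters. TATAAA stood in 55.2% against 12.6%, and ATTTGCAT in 22.4% against 1.57%. CCAAT was in all 36 H2A and H2B promoters but in 4 of 13 H4 promoters (30.8%). The octamer was in 7 H2A and 8 H2B promoters and in none of H1, H3 or H4. AAACACA, a motif known from H1 promoters, stood in 4 of 6 H1 promoters (66.7%) against 6.40% of all. The letters were searched on both strands and divergent neighbours share part of their window, so these counts are not independent.

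The stem-loop was found within 300 bases after the stop codon in 58 of the 67 genes (86.6%), and in 2 of 21685 other protein-coding genes. It began at a median of 32 bases after the stop codon. Its 3 commonest forms are shown with the arms of the stem in capitals. The first was in 38 genes and the second, which differs in the loop, in 9, none of them H4 genes, and the H4 form was in 8.
H1, H2A, H2B and H3, first form: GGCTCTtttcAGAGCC
H1, H2A, H2B and H3, second form: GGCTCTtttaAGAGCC
H4 form: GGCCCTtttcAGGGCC
All 10 H4 genes with a match carried the arms of the H4 form, and the 48 matched genes of the other types carried those of the other 2. The 9 genes without a match included Hist1h2bp, Hist1h2bq and Hist1h2br, which have more than 1 annotated start and exon. Only the bases after the most distal annotated stop codon of a gene were searched, so a stem-loop after an earlier stop codon would be missed.

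In the control list 59 of the 67 genes (88.1%, exact Clopper-Pearson 95% interval 77.8 to 94.7%) had a start peak, against 50.9% of all protein-coding genes. In the asthmatic list 55 (82.1%, 70.8 to 90.4%) had one, against 41.9%. Other single-exon protein-coding genes had one in 19.5% and 14.5%. A start peak was present in both lists at 55 genes (82.1%, against 41.2% of all genes), in the control list alone at 4 (against 9.71%), in the asthmatic list alone at 0 (against 0.722%) and in neither at 8 (against 48.4%). Intervals cover counting error only, and divergent neighbours share their peaks, so the genes are not independent.

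The counts by histone type were not tested against each other. Of the 18 genes for H2A, a core histone, 17 had a start peak in each list, and of the 18 for its partner H2B 16 did. All 12 H3 genes had one in the control list and 11 in the asthmatic list. For H4 the counts were 11 and 9 of 13. The linker histone H1, which binds DNA between nucleosomes, had 3 and 2 of 6. The exact 95% intervals in the control list were wide and overlapped, at 11.8 to 88.2% for H1, 54.6 to 98.1% for H4 and 72.7 to 99.9% for H2A. At up to 2000 bp from a start, 5 of the 6 H1 genes had a peak in each list. By cluster, the counts in the control and asthmatic lists were 21 and 20 of 23 in the first Hist1 cluster, 26 and 24 of 31 in the second, and 10 and 10 of 10 in Hist2. Hist3 had 1 of 2 in each list, and Hist4h4 had a start peak in the control list alone. The plot of percentiles by type shows these counts under the values of the genes with a peak.

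**Figure D1:**
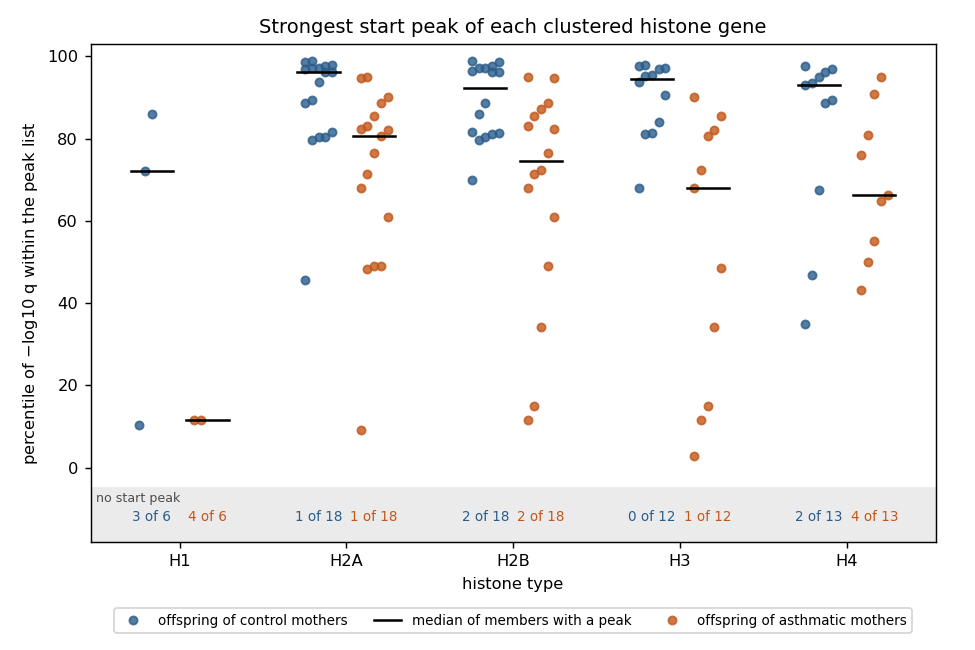
Percentile of −log10 q within its own list for the strongest start peak of each clustered histone gene, by histone type, in offspring of control mothers (blue) and asthmatic mothers (orange). Each point is a gene, black lines are medians over the genes with a peak, and the grey band gives the genes without one. The medians of H2A, H2B, H3 and H4 lie above 90 in the control list, and H1 is the type with the largest share of genes without a peak.

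The 8 genes without a start peak in either list included 3 of the 6 H1 genes, Hist1h1b, Hist1h1d and Hist1h1t. The last encodes the testis-specific linker histone, and all 3 germline genes, Hist1h1t, Hist1h2ba and Hist1h2aa, were in this group. The divergent pair Hist1h2ba and Hist1h2aa lay far from any peak, with the nearest at 99300 bp from Hist1h2aa in the control list and 71153 bp from Hist1h2ba in the asthmatic list. Hist1h1t was 2286 and 2371 bp from the nearest peak. The others were the H4 genes Hist1h4i and Hist1h4d and the H2B gene Hist3h2ba. Hist1h4i was just outside the limit, with a peak over Hist1h2ag that lay 1154 bp away with 39 fragments in the control list and 1214 bp away with 19 in the asthmatic list. Measured from the start, the nearest peak was 1336 and 1380 bp from Hist1h1b and 1645 and 1710 bp from Hist1h1d. For Hist1h4d it was 3380 and 3968 bp, and for Hist3h2ba 5766 and 6264 bp. A peak overlapped the body of Hist1h1d, annotated as 7425 bp long, in each list. Of the 8 genes, 7 carried TATAAA, 6 carried CCAAT and all 8 the stem-loop.

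The 4 genes with a start peak in the control list alone were Hist1h4m, Hist1h3g, Hist1h1a and Hist4h4. The H4 gene Hist1h4m was counted only through the peak over its neighbour Hist1h2ao, 936 bp away and just inside the limit. The H3 gene Hist1h3g had 25 fragments (95% Poisson interval 16.2 to 36.9) at percentile 68.0. Hist4h4 had 22 fragments (13.8 to 33.3) at percentile 46.9. The linker histone gene Hist1h1a had 15 (8.40 to 24.7) at percentile 10.3, the lowest −log10 q in that list among the strongest start peaks of the genes. In the asthmatic list the nearest peaks lay 1181 bp from the start of Hist1h3g, 2018 bp from that of Hist4h4 and 1452 bp from that of Hist1h1a. The body of Hist4h4 was overlapped by a peak in that list.

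The peaks sat inside the genes rather than over the starts. The 59 genes of the control list shared 55 distinct peaks and the 55 genes of the asthmatic list 48. For 52 (94.5%) and 45 (93.8%) of these peaks the summit lay inside the histone gene whose start was nearest to the peak. Over all of these peaks it lay at a median of 218 and 256 bp after that start. Taking 1 peak per gene, the one nearest to a start, the summit lay at a median of 214 and 211 bp in the histone genes, against 115 and 107 bp over all protein-coding genes and 181 and 174.5 bp over other single-exon genes. A peak covered an annotated start at 9 genes in the control list, 15.3% of those with a start peak, against 73.3% over all protein-coding genes and 35.2% over other single-exon genes. In the asthmatic list it did so at 5, or 9.09%, against 49.1% and 24.2%. The 9 genes included the H4 genes Hist1h4j and Hist1h4k, and the 5 included the H2A gene Hist2h2aa2. The annotated start is the start codon in Hist1h3h, Hist1h4k, Hist1h2bn and Hist1h2an of the 9 and in Hist1h2ai and Hist1h2bl of the 5. A peak over it there need not cover the first transcribed base. In the map of peaks around the starts most bars lie inside the genes. The peak of an own summit ran past the end of the gene at 5 genes in the control list, 4 of them in Hist2, and at 2 in the asthmatic list.

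Since a start peak could lie over a neighbour, the genes with a summit inside their own body were also counted, a measure chosen after the data were seen. There were 52 in the control list and 44 in the asthmatic list. No such count is given here for other protein-coding genes, so whether it is high or low cannot be read from it. The other 7 and 11 genes with a start peak had no summit inside their own body. Among them in both lists were Hist1h4n, Hist1h2bm, Hist1h2ak, Hist1h2bb and Hist1h2be. Hist1h2be, an H2B gene, was counted through a peak inside Hist1h1e, with 27 fragments in the control list and 11 in the asthmatic list. By type, own summits were found in 15 H2A, 13 H2B, 12 H3, 9 H4 and 3 H1 genes in the control list, and in 15, 10, 9, 8 and 2 in the asthmatic list.

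At the divergent pairs, 12 of 13 had a start peak in each list, and at all 12 a single peak lay within 1000 bp of both starts, so that the neighbours could not be told apart by distance alone. Most of these places held a peak in each gene with a gap between them. A summit lay inside both genes at 10 pairs in the control list and at 8 in the asthmatic list. No peak covered the midpoint between the starts in either list. Among 137 other divergent pairs of protein-coding genes as far apart as the H2A-H2B pairs, the midpoint was covered in 13.1% of those with a peak in the control list and in 3.74% in the asthmatic list. In the stretches between H2A and H2B starts, 1.43% of bases lay in a peak in the control list and 1.13% in the asthmatic list.

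The 2 sides of a pair carried unequal fragments. In the control list the H2A gene had more fragments at its summit than the H2B gene in 9 of the 9 H2A-H2B pairs with a summit in each. At Hist1h2bf and Hist1h2ad the H2A gene Hist1h2ad had 48 fragments and the H2B gene 26, and at Hist1h2bl and Hist1h2ai the H2A gene had 42 and the H2B gene 21. The difference was small at Hist1h2ac (37) and Hist1h2bc (34), and at Hist1h2ao (45) and Hist1h2bq (43). In the asthmatic list the H2A gene was higher in 3 pairs, the H2B gene in 3 and 1 was equal. There Hist1h2bc had 26 fragments against 18 at Hist1h2ac, the opposite order to the control list. Over these types, the 75 bases at an own summit occurred at a median of 12 places in the genome for H2A and 10 for H2B in the control list, and at 8 and 7 in the asthmatic list, and the part of such copies in these values was not tested.

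**Figure D2:**
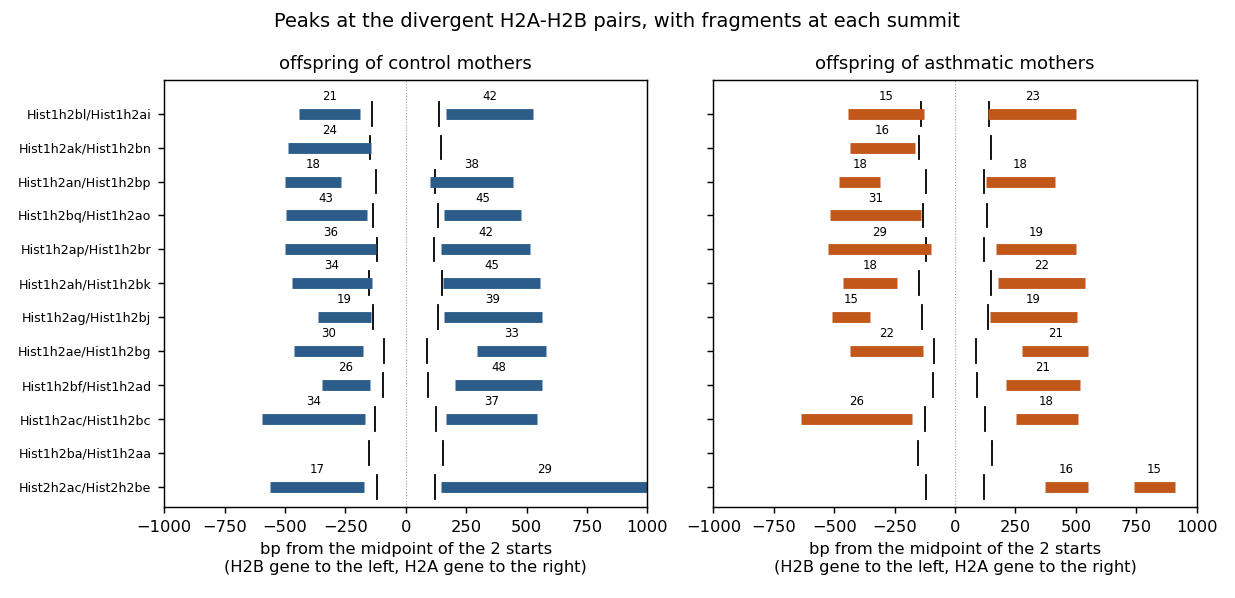
Peaks around the midpoint of the 12 divergent H2A-H2B pairs, in bp, with the H2B gene on the left and the H2A gene on the right, for offspring of control mothers (blue) and asthmatic mothers (orange). Vertical ticks are the annotated starts and the number above each bar is the fragments at its summit. No bar crosses the midpoint, and the germline pair Hist1h2ba and Hist1h2aa has none.

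The sequence at most of these summits was not unique. The 75 bases centred on the summit had an exact copy elsewhere in the genome for 46 of the 55 peaks (83.6%) in the control list and for 38 of 48 (79.2%) in the asthmatic list. At summits of other protein-coding start peaks this held for 2.83% and 4.41%. The median was 7 places in the control list and 6.5 in the asthmatic list, with up to 16. With 150 bases, near the length of DNA on a nucleosome, 36 (65.5%) and 33 (68.8%) had a copy. By the longest annotated coding sequence of each gene, the 13 H4 genes encode a single protein, the 12 H3 genes 3, the 18 H2A genes 9 and the 18 H2B genes 12. Annotated sequences that differ in length count as distinct proteins here. The cluster holds whole copied stretches too: in the 1000 bases around their starts, Hist1h2bq, Hist1h2ao, Hist1h2ap and Hist1h2br had a copy of every 75-base stretch. Hist1h4m, Hist1h4n, Hist2h3c2 and Hist2h3c1 had one for over 91% of stretches, Hist2h2aa2 for 66.8%, Hist2h2aa1 for 60.5% and Hist1h2ad for 50.9%. A read that lies within one such copy can be set down at another. The study's reporting summary gives paired-end reads, whose mates can reach into unique sequence, and no reads were examined here.

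Fragments moved with the copies. In the control list the 9 peaks with a single-copy summit had a median of 18 fragments (15 to 29), the 17 with 2 to 6 places 31 (19 to 46) and the 29 with 7 or more 34 (18 to 48). In the asthmatic list the medians were 14.5 for 10 peaks, 15.5 for 14 and 19 for 24. Spearman's rho between places and fragments was 0.44 over 55 peaks and 0.48 over 48, as a description of peaks that share a library and, in part, their sequence. Single-copy summits at other protein-coding starts had a median of 24 fragments in the control list and 16 in the asthmatic list. The median single-copy peak of the histone genes lay at percentile 45.6 of −log10 q in the control list and the copied ones at percentile 89.99, and at percentiles 37.7 and 69.2 in the asthmatic list.

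**Figure D3:**
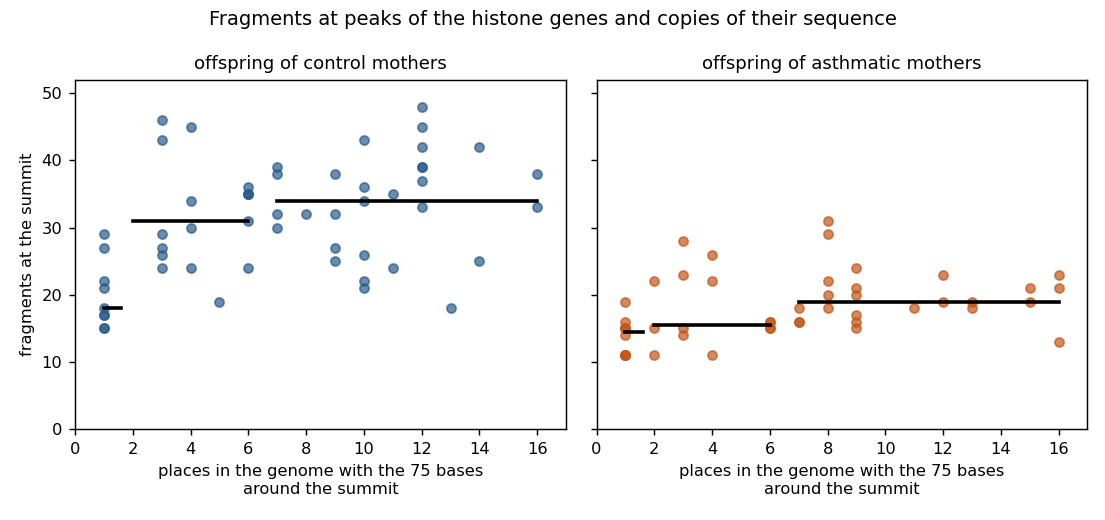
Fragments at the summit of each peak at a histone gene start against the number of places in the genome that hold the 75 bases around that summit, for the 55 peaks of the control list and the 48 of the asthmatic list. Black lines are medians over peaks with 1, 2 to 6 and 7 or more places. In the control list the medians are 18, 31 and 34 fragments, and in the asthmatic list 14.5, 15.5 and 19.

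Copied sequence was also measured around the starts, whether or not a gene had a peak. The share of copied stretches around the start had a median of 28.5% in the 55 genes with a peak in both lists, 11.3% in the 4 with one in the control list alone and 2.10% in the 8 with none. By type the medians were 39.5% for H2A, 30.0% for H2B, 28.3% for H3, 16.8% for H4 and 0% for H1. The part of copied sequence in the counts by type was not tested. A start peak with a single-copy summit was present at 10 genes in the control list and 11 in the asthmatic list. Those of the control list were Hist1h2be, Hist1h1e, Hist1h1a, Hist2h2ab, Hist2h2ac, Hist2h2be, Hist2h4, Hist2h2bb, Hist3h2a and Hist4h4, and none was in the first Hist1 cluster.

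Among the genes with a peak, the strongest start peak lay at a median percentile of 93.5 in the control list, against 82.7 over all genes with a start peak, and at 72.5 against 60.6 in the asthmatic list. It held a median of 35 fragments against 26 over all genes, and 19 against 16. The peaks were narrow, with median widths of 359 against 528 bp in the control list and 302 against 340 bp in the asthmatic list. The median percentile in the control list was 97.0 in the first Hist1 cluster, 89.99 in the second and 81.1 in Hist2. By type it was 96.1 for H2A, 94.5 for H3, 93.0 for H4, 92.3 for H2B and 72.1 for H1.

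Ranked by −log10 q in the control list, the highest peak lay over Hist1h2ah, an H2A gene of the first Hist1 cluster, and was also counted at its divergent partner Hist1h2bk. It had 45 fragments and a −log10 q of 29.7, at percentile 99.0, in that list, and 22 fragments at percentile 88.8 in the asthmatic list. In the second Hist1 cluster the highest in the control list was Hist1h2ab, with 38 fragments at percentile 97.9 and 19 at percentile 82.2, a peak inside Hist1h2ab that also counted at Hist1h3b and made it the highest H3 gene. By own summits the highest H3 gene of the control list was Hist1h3f, at percentile 95.5. Among H4 genes the highest was Hist1h4k, with 35 fragments at percentile 97.5 and 24 at percentile 95.01. Among H1 genes it was Hist1h1e, with 27 fragments at percentile 85.9 and 11 at percentile 11.6. At the low end of the first Hist1 cluster, Hist1h2ak and Hist1h2bn shared a peak of 24 fragments at percentile 79.8 and of 16 at percentile 60.8. The lowest H3 gene of the control list was Hist1h3g and the lowest H2B gene Hist1h2bh, with 24 fragments at percentile 70.0 and 19 at percentile 72.5. Both ranks count peaks over a neighbour, and by own summits the lowest were Hist2h3c2 at percentile 47.0 and Hist2h2be at percentile 9.49. The order differed in the asthmatic list. There the highest was Hist1h4k, and in the second Hist1 cluster it was the peak shared by Hist1h2bc and Hist1h2ac, with 26 fragments at percentile 94.7. The highest H3 gene was Hist2h3c1 through a peak of 28 fragments whose summit lies in the H2A gene Hist2h2aa1, while its own summit had 15 fragments at percentile 5.65. The lowest of all was the H3 gene Hist1h3a, with 11 fragments at percentile 2.91, and the lowest H2B gene was Hist1h2be, at percentile 11.6 through the peak inside Hist1h1e.

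In the Hist2 cluster, wide peaks were shared by several genes. Over distinct peaks at histone starts, the median width in the control list was 376.5 bp in Hist2 and 342 and 287 bp in the Hist1 clusters, and in the asthmatic list it was 199 bp against 292 and 265.5 bp. Counted by gene, the strongest start peaks of its 10 genes had a median width of 919 bp in the control list, against 361 and 299 bp in the Hist1 clusters. In the asthmatic list the width was 193.5 bp, against 359 and 284 bp. By the strongest start peak of each gene, the 7 genes with the greatest widths in the control list, the last 3 of them with the same peak, were all in Hist2. A peak of 1030 bp was shared by the H2A gene Hist2h2aa1 and the H3 gene Hist2h3c1, with 43 fragments in the control list, and was 948 bp wide with 28 fragments in the asthmatic list. A peak of 1029 bp was shared by Hist2h2aa2 and Hist2h3c2, with 46 fragments. Within its span the asthmatic list held 2 peaks, one with 22 fragments and one of 547 bp with 23. By the same measure, the next in width in the asthmatic list was the peak of 497 bp in Hist1h1e, outside Hist2, that was also counted at Hist1h2be. Hist2h2ab, Hist2h2ac and Hist2h2be shared one of 919 bp with 29 fragments, which also lay within 1000 bp of a start of Bola1, no histone gene. Within that span too the asthmatic list held 2 peaks, of 167 bp with 15 fragments and of 179 bp with 16, and the summit of the control peak lay inside Hist2h2ab, as did that of the first. These 3 genes have single-copy summits there, while the other wide peaks lie over copied genes. Hist2h3b and Hist2h2bb shared a peak of 409 bp and 29 fragments, which was 156 bp wide with 15 fragments in the asthmatic list. Hist2h4 had 18 fragments at 305 bp and 15 at 208 bp, and was the lowest H4 gene of the control list at percentile 34.9. It was at percentile 50.1 in the asthmatic list, where Hist1h4f was lower at percentile 43.1.

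Outside these clusters the values were low. Hist3h2a, the lowest H2A gene, had a peak of 701 bp with 17 fragments at percentile 45.6 in the control list and one of 164 bp with 11 fragments at percentile 9.28 in the asthmatic list. The same peak lay within 1000 bp of a start of Trim17, which encodes a RING-type E3 ligase. Hist3h2ba had none. Hist4h4 had a start peak of 359 bp in the control list alone, while in the asthmatic list a peak overlapped its body away from the start.

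In the 43 genes with an own summit in both lists, the asthmatic list had fewer fragments at 42 and as many at 1, Hist1h2bp with 18 and 18. The median ratio of the asthmatic to the control list was 0.53, with a range of 0.34 to 1.00. For all protein-coding genes whose strongest start peak overlapped between the lists, the ratio was below 1 at 97.6% and its median was 0.61, so that nearly all genes shared the direction. By type the median ratio was 0.75 in H2B, 0.61 in H4, 0.49 in H2A, 0.46 in H3 and 0.43 in 2 H1 genes. By the measure used for all genes, where a peak over a divergent neighbour can count for both genes, the medians were 0.52 in 12 H2B, 0.59 in 9 H4, 0.50 in 13 H2A, 0.50 in 10 H3 and 0.43 in 2 H1 genes, so the higher ratio of H2B was seen with own summits alone. Single-copy own summits in both lists were found at Hist2h2ab, with 29 and 15 fragments, Hist2h4, with 18 and 15, and Hist3h2a, with 17 and 11. The plot of fragments in both lists shows these own summits gene by gene.

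**Figure D4:**
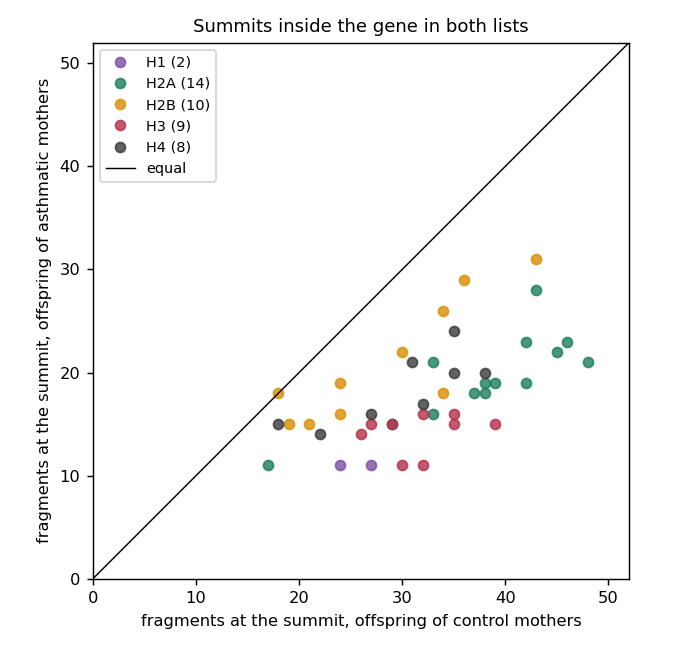
Fragments at the summit inside the gene in offspring of control mothers against those in offspring of asthmatic mothers, for the 43 genes with such a summit in both lists, coloured by histone type with the number of genes in brackets. All points lie below the line of equal values except that of Hist1h2bp, which lies on it with 18 and 18 fragments.

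To set the genes beside others of like rank, the middle range of their control percentiles, 81.3 to 97.1, was taken. Of 29 histone genes in it 28 had a start peak in the asthmatic list (96.6%), against 94.7% of 5161 other genes. The medians that follow cover only the 19 histone genes and 4545 others whose strongest start peak overlapped between the lists. The remaining histone genes of the range were left out of them. The median percentile was 93.5 against 90.3 in the control list and 64.7 against 68.1 in the asthmatic list. The median ratio of fragments was 0.52 against 0.59. Widths differed more, at 309 against 607 bp in the control list and 292 against 378 bp in the asthmatic list.

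Other genes of histone supply lie outside the clusters or carry polyadenylated messages. The shares of all protein-coding genes with a start peak, 50.9% and 41.9%, stand beside the counts of these lists. Of 13 replacement variants, many of them made throughout the cell cycle, 10 had a start peak in the control list and 9 in the asthmatic list. In the control list the highest of these was H2afv, which encodes a form of H2A.Z, with 29 fragments at percentile 95.9 and 20 at percentile 88.1. The highest in the asthmatic list was H3f3a, which encodes H3.3, with 29 fragments at percentile 94.99 against 31 at percentile 76.9 in the control list. H2afz was the lowest in both lists, with 21 at percentile 27.7 and 14 at percentile 17.0. H1fx, H1foo and H1fnt had none. All 12 factors of histone transcription and messenger RNA processing had one in the control list and 9 in the asthmatic list. Npat was the highest of them in the control list, with 35 fragments at percentile 97.7 and 19 at percentile 84.5. Slbp had 22 at percentile 67.9 and 13 at percentile 34.1, and Cstf2 was the lowest, with 16 at percentile 51.2 and none in the asthmatic list. All 12 histone chaperones had a start peak in both lists, from Hjurp, which loads CENP-A, with 85 and 54 fragments, to Asf1b with 14 and 12. Median control widths in the 3 lists were 647.5, 568.5 and 569 bp.

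Of 10 genes that lie between the histone genes without being histone genes, 3 had a start peak in the control list, Zfp184, Hfe and Trim17, and 2 in the asthmatic list, Hfe and Trim17, against 50.9% and 41.9% of all genes. The Slc17a1, Slc17a2, Slc17a3 and Slc17a4 genes of the second Hist1 cluster, which encode anion transporters, had none. Of the 29 peaks within the second Hist1 cluster 25 lay at histone starts in the control list, and of 27 in the asthmatic list 20 did. In the first Hist1 cluster these counts were 18 of 23 and 17 of 21. In Hist2 all 10 peaks of each list lay at histone starts.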

How the data were processed

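H3K4me3 CATCH-seq was measured in 1 library of lung ILC2s from offspring of control mothers and 1 from offspring of asthmatic mothers. The authors' notes name Trim Galore, cutadapt, Bowtie2, SAMtools and deepTools with build mm10, and their methods remove duplicates with Sambamba. The peak caller, its threshold and any use of input are not given in the sources used here, and the study's reporting summary says that no peaks were called. How reads with several best matches were treated is not given either. The deposited lists hold per peak a score (10 times the −log10 q), a fold (a ratio of summit signal to the caller's background), and the authors' −log10 p and −log10 q. These describe peaks within a list and are not scaled between lists. The study's reporting summary gives paired-end reads and 1 sequencing total without assigning it to libraries, so the read depth of each library is unknown. The lowest solved background of any peak was 1.83 fragments in the control list and 1.57 in the asthmatic list. Divided by the narrowest peak width, 190 and 156 bp, it came to 96.1 and 100.4 fragments per 10 kb. Peak width stands there in place of a fragment length, which is not known.

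Peaks were read on GRCm38, counted from 1, with starts from GENCODE vM21. Fragments were solved from fold and p under a Poisson model with 1 added to signal and background, which assumes calling without a control, and 3 peaks per list could not be solved. Stretches of 75 and 150 bases were counted on both strands of 21 assembled chromosomes. Shares have exact Clopper-Pearson intervals and fragments exact Poisson intervals, both at 95% and for counting error only. The genes, lists and alternatives were chosen with earlier results of these data known. Named are genes without a peak in both lists, the highest and lowest −log10 q per cluster, type and list of genes, the 5 widest start peaks, all genes outside chromosome 13, the germline genes, and those copied over more than 50% of the window, with others chosen after their values were seen. Lookups, solved fragments and copy counts were tested on simulated data. Python 3.11.15, numpy 2.4.6, pandas 2.3.3, scipy 1.17.1, numba 0.67.0, Biopython 1.88 and matplotlib 3.10.9 were used.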

Additional observations from a re-analysis of the deposited data

How the results depend on the processing

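No paired analysis was possible because each group had a single library, and for the same reason no library could be left out and no outlier or difference between groups could be tested. Of 259 values under alternatives for 27 results, 181 stayed within 1.5 times a count or within the binomial 95% interval of a median, and 78 did not. The causes were not tested, apart from those set by an alternative's own construction.

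At 2000 bp from a start, H1 genes with a peak numbered 5 and 5 in the control and asthmatic lists. There 1 of the 67 genes had one in the control list alone, against 9.59% of all protein-coding genes. With peaks at a −log10 q of at least 5, no H1 gene (0) remained in the asthmatic list. Under that limit 11 of the 67 genes had a peak in the control list alone, against 12.7% of all protein-coding genes. With each peak counted at its nearest gene alone, 9 genes were in the control list alone and 1 in the asthmatic list alone, and the median widths were 338 and 265.5 bp. Without the genes copied over more than 50% of their window, 6 genes remained in Hist2 in each list by construction. The alternatives of 500 bp, for start peaks and for pairs, and of the 5′ end of the gene alone, which was not run for the 3 results on divergent pairs, moved none of the results they were run for.

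A peak over the start itself was present at 9 genes in the control list and 5 in the asthmatic list, against 37.3% and 20.6% of all protein-coding genes. It was in the control list alone at 7 and in the asthmatic list alone at 3, against 17.6% and 0.853%. By type the counts were 1 H1, 2 H2A, 3 H2B, 1 H3 and 2 H4 in the control list and 0, 2, 3, 0 and 0 in the asthmatic list. By cluster they were 7 and 4 in the first Hist1 cluster, 1 and 0 in the second and 1 and 1 in Hist2, and the asthmatic median percentile was 82.5 and width 379 bp. With the 10000 peaks of highest −log10 p, 51 genes had a peak in the control list and 21 in the asthmatic list, the latter at a median percentile of 87.1 and a width of 365 bp, and 30 genes had one in the control list alone. Over all protein-coding genes the shares were then 32.2%, 9.32% and 23.7%. The 21 held 0 H1, 8 H2A, 7 H2B, 3 H3 and 3 H4 genes, with 5 in the second Hist1 cluster and 2 in Hist2, and 1 H1 gene in the control list. The median fragments per summit were 21 in the control list and 18 in the asthmatic list, and the part of depth in such counts was not tested.

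The median control percentile was 81.8 by fold, 59.0 by width and 81.6 among coding start peaks alone. Peaks joined at up to 1000 bp were 1018 and 539 bp wide. At up to 2000 bp between starts there were 21 divergent pairs. Added after the data were seen, summits without a copy left 10 genes in the control list and 11 in the asthmatic list, at median percentiles of 64.4 and 49.0 and widths of 426 and 208 bp, with 6 genes in the asthmatic list alone. By type these were 2 H1, 3 H2A, 3 H2B, 0 H3 and 2 H4 in the control list and 1 H1, 3 H2A, 2 H2B, 2 H3 and 3 H4 in the asthmatic list. By cluster they were 0 and 0 in the first Hist1 cluster, 3 and 6 in the second and 5 and 4 in Hist2. Also added later, summits inside the gene gave 9 genes in the control list alone and 1 in the asthmatic list alone, 10 H2B genes in the asthmatic list, and widths of 340 and 256.5 bp.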
